A study of Mus musculus with 4 samples.

Results

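Prostaglandins are lipid signals made from arachidonic acid. Cytosolic phospholipase A2 frees the fatty acid from membranes, the cyclooxygenases convert it to prostaglandin H2, and terminal synthases turn that intermediate into prostaglandin E2, prostacyclin or other products, which act on G protein-coupled receptors. In muscle the pathway is best known for its part in inflammation, regeneration and myoblast fusion. The 10 genes described here were fixed by name and cover these steps: the phospholipase Pla2g4a, the cyclooxygenases Ptgs1 and Ptgs2, the prostaglandin E synthases Ptges, Ptges2 and Ptges3, the prostacyclin synthase Ptgis, the prostaglandin-degrading dehydrogenase Hpgd, and the prostaglandin E2 receptor genes Ptger2 and Ptger4. They are 10 of 55416 annotated genes in the deposited data.

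RNA came from C2C12 cells, a mouse myoblast line, transfected with DNA for K97E lamin A (2 libraries), a mutant tied to dilated cardiomyopathy, or for wild-type lamin A (2 libraries). Both groups received 3 µg of DNA with a lipid reagent and were harvested after 24 h, so every library comes from transfected cells. Untransfected cells were not analysed here. The promoter of the constructs and the share of cells that took up DNA are not given in the sources used here. The labels call the replicates biological without saying that cultures were separate, and the p-values therefore reflect only how far these libraries differ, which may be technical. The titles of the K97E libraries name the line C1C12, whereas their cell line label is C2C12.

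Depth came to between 89612700 and 115619000 reads of 100 bases per library, estimated from the deposited coverage. Of 8 myoblast markers 7 had a mean of at least 0.5 TPM (a transcript level scaled for transcript length and library depth), and Pax7 was at or near 0. Their summed level was 733 and 727 TPM in the K97E libraries, against 701 and 844 TPM in the wild-type libraries. Of 9 leukocyte markers 3 reached that level, with sums between 47.5 and 64.4 TPM that were mostly Cd14. Ptprc, the pan-leukocyte surface protein, stayed at or under 0.0496 TPM, and Adgre1 and Cd3e were listed at 0 in all libraries. Mitochondrial genome transcripts took 5.55% and 5.29% of TPM in the K97E libraries, against 7.37% and 5.37% in the wild-type libraries, where replicate 1 stood apart. Over all tested genes Pearson's r was 0.9911 between the K97E libraries and 0.9849 between the wild-type libraries, across genes, which are not independent. The 4 pairs of a K97E and a wild-type library had 0.9866 to 0.9895, so each of these pairs was more alike than the wild-type libraries were to each other.

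Both cyclooxygenase genes were expressed, and their promoter windows are shown because the pair had different levels and patterns over the libraries. The sequences are RefSeq's, of the build GRCm38.p6, and run from 250 bases before to 50 bases after each start, 5′ to 3′ on the gene's strand. Capitals mark every match, on either strand, to one of 8 motifs: the kappa B consensus, the CRE (TGACGTCA), the CRE core (CGTCA), the E-box (CACGTG), the C/EBP motif (TTNNGNAA), the AP-1 motif (TGANTCA), the TATA box (TATAAA) and the GC box (GGGCGG).

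Ptgs2, chr1:150099781-150100080, plus strand: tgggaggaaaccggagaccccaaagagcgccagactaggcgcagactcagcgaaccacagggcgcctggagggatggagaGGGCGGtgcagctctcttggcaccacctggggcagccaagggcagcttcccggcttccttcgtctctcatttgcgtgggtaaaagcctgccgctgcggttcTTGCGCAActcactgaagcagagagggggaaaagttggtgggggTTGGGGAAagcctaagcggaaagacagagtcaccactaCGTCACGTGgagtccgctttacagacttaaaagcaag

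Ptgs1, chr2:36230176-36230475, plus strand: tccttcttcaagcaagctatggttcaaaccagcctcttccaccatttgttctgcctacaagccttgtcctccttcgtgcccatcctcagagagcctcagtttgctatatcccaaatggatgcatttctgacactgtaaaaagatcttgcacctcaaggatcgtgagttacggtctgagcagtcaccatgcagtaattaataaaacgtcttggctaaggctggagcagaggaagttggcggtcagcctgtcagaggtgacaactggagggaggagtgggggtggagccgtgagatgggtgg

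The Ptgs2 window, of the inducible isozyme, held 1 GC box, 2 C/EBP matches and a CRE core that overlaps an E-box. The Ptgs1 window, of the isozyme usually called constitutive, held none of the 8. The windows of Ptges, Ptges2, Hpgd and Ptger2 and one of the Pla2g4a windows also held a C/EBP match, and Ptgis had no matching entry. Among all 32851 RefSeq promoter windows of this length, 40.7% held a C/EBP match, 35.7% a GC box, 20.8% a CRE core and 7.15% an E-box. These matches describe letters in a window and are not binding sites, and no match says only that these letters are not there.

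Ptgs1 was the dominant cyclooxygenase transcript in all 4 libraries. Its level was 217 and 163 TPM in the K97E libraries, against 136 and 217 TPM in the wild-type libraries. The groups overlapped, and the lowest and the second highest value were both wild type. Ptgs2 stood at 33.82 and 33.85 TPM in the K97E libraries, against 34.9 and 58.0 TPM in the wild-type libraries. Wild-type replicate 1 lay within about 1 TPM of the K97E libraries, and wild-type replicate 2 alone was high. Mean levels were 33.8 ± 0.0207 TPM in K97E and 46.4 ± 16.4 TPM in wild type for Ptgs2, and 190 ± 38.2 TPM in K97E and 177 ± 56.7 TPM in wild type for Ptgs1 (SD, n = 2 each). Ptgs1 was 6.42 and 4.82 times Ptgs2 in the K97E libraries, and 3.92 and 3.73 times in the wild-type libraries.

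Expressed as a share of cyclooxygenase TPM, Ptgs2 made up 13.5% and 17.2% in the K97E libraries, against 20.3% and 21.1% in the wild-type libraries. The groups did not overlap in this share, and wild-type replicate 1, whose Ptgs2 level was near that of the K97E libraries, had the lowest Ptgs1 level of the 4. An exact two-sided permutation test with 2 libraries against 2 cannot go below 0.333, and no other test was run on the share, so its difference is given as a description. The share of Ptger4 among the E receptor genes, given below, also had groups without overlap. How often shares of other genes separate the groups was not counted. In bulk RNA, fewer cells that express a gene and less RNA per cell cannot be told apart.

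**Figure D1:**
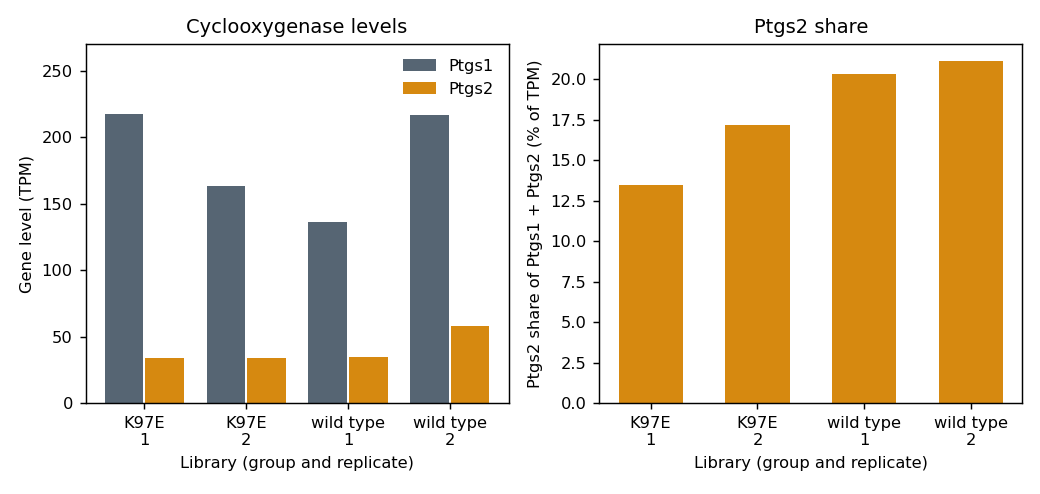
Left, levels of Ptgs1 and Ptgs2 in TPM (bars, 1 per gene and library). Right, Ptgs2 as a percentage of Ptgs1 plus Ptgs2 TPM in each library. Ptgs1 exceeds Ptgs2 in every library, and the Ptgs2 share is 13.5% and 17.2% in K97E, against 20.3% and 21.1% in wild type.

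Across all genes, limma called 1 of 16304 tested genes at an adjusted p under 0.05, or 0.00613% of them. None of the 8 tested prostaglandin genes was that gene, and none had an unadjusted p under 0.05, a level that 600 genes, or 3.68%, reached over the whole table. The called gene was Mfsd4a, a transporter-like membrane protein outside the pathway, which is named because it is the only one (limma adjusted p = 0.0157). It had 11.5 and 11.2 TPM in the K97E libraries, against 0.669 and 0.705 TPM in the wild-type libraries. Its call was lost without either K97E library, in the fit lacking wild-type replicate 2, with no filter on low genes and with the replicate number as a block. Differences below are K97E minus wild type on the scale of log2(TPM + 0.5), after scaling between libraries, with limma p-values adjusted over all tested genes by the Benjamini-Hochberg method.

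The log2 difference of Ptgs2 was -0.46 (SE 0.23, 95% interval -1.05 to 0.12, limma adjusted p = 0.965). It was the largest in size among the 8 tested genes, and it rested on wild-type replicate 2: the value was -0.10 without that library and -0.83 without wild-type replicate 1 (limma adjusted p = 0.657 and 0.209). The gap between the wild-type libraries was 0.73 on the log2 scale, wider than the difference between the groups. The log2 difference of Ptgs1 was 0.07 (SE 0.24, 95% interval -0.53 to 0.67, limma adjusted p = 0.988). Its direction depended on the library left out, at -0.26 when wild-type replicate 1 was dropped and -0.10 when K97E replicate 1 was, but 0.40 when wild-type replicate 2 was dropped and 0.25 when K97E replicate 2 was. These intervals are wide, so these libraries do not exclude a change of either cyclooxygenase within them. The intervals are not limits of detection, because calls were made on p-values adjusted over all tested genes.

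Exon by exon, the higher Ptgs2 of wild-type replicate 2 ran along the whole transcript. Ptgs2 (ENSMUSG00000032487; GRCm39 chromosome 1, 149975782 to 149983978, plus strand) had almost all of its level, 98.3% to 99.7% of TPM, in the 10-exon transcript ENSMUST00000035065. Coverage per aligned gigabase was highest in wild-type replicate 2 in 10 of 10 exons. In exon 5, for example, it was 19.6 and 18.5 in the K97E libraries, against 17.4 and 32.7 in the wild-type libraries. The other 3 libraries crossed each other along the transcript, with wild-type replicate 1 lowest in 6 exons and second highest in exons 3, 4 and 10. Ptgs1 (ENSMUSG00000047250; GRCm39 chromosome 2, 36120438 to 36142284, plus strand) had 85.1% to 90.5% of its level in the 11-exon transcript ENSMUST00000062069. Wild-type replicate 1 was lowest in 9 of those 11 exons. In exon 9, for instance, coverage was 72.9 and 57.4 in the K97E libraries, against 36.2 and 76.4 in the wild-type libraries. An antisense gene, Gm43621, overlaps up to 148 bases of a Ptgs1 exon and was listed at 1.56 to 1.92 TPM.

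**Figure D2:**
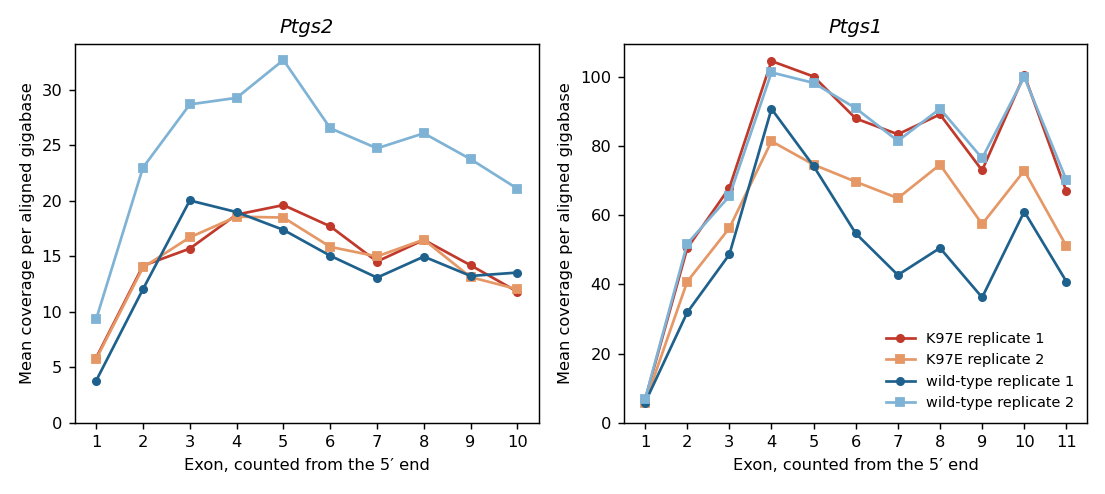
Mean coverage per aligned gigabase (vertical axes, linear) in each exon of the leading Ptgs2 and Ptgs1 transcripts, counted from the 5′ end, with 1 line per library. For Ptgs2, wild-type replicate 2 lies above the other libraries in 10 of 10 exons, and for Ptgs1, wild-type replicate 1 is lowest in 9 of 11.

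Upstream of the cyclooxygenases, Pla2g4a, which encodes the arachidonate-releasing cytosolic phospholipase A2, had 31.3 and 27.1 TPM in the K97E libraries, against 30.4 and 33.0 TPM in the wild-type libraries. The groups overlapped in these values, though not after scaling between libraries, where both K97E libraries were lower. The log2 difference was -0.17 (SE 0.10, 95% interval -0.43 to 0.08, limma adjusted p = 0.965). Its sign was negative with every library left out, between -0.24 and -0.10. One transcript of 18 exons, ENSMUST00000070200, carried at least 99.6% of the level in each library. Pla2g4a (ENSMUSG00000056220) lies on GRCm39 chromosome 1, 149705369 to 149837041, minus strand.

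The terminal synthases for prostaglandin E2 were present at very unequal levels. Ptges3, which encodes the cytosolic synthase also known as the HSP90 co-chaperone p23, had 172 and 178 TPM in the K97E libraries, against 175 and 158 TPM in the wild-type libraries. Ptges2, the membrane-associated synthase 2, had 10.8 and 10.1 TPM in the K97E libraries, against 8.18 and 9.10 TPM in the wild-type libraries. Ptges, the inducible microsomal synthase that is commonly coupled to Ptgs2, had 2.81 and 1.75 TPM in the K97E libraries, against 2.17 and 2.72 TPM in the wild-type libraries. Ptges3 made up 92.7% and 93.8% of the summed synthase TPM in K97E and 94.4% and 93.0% in wild type. Ptges made up no more than 1.61% in any library. On GRCm39, Ptges3 (ENSMUSG00000071072) lies on chromosome 10, 127894823 to 127913141, plus strand. Ptges2 (ENSMUSG00000026820) lies on chromosome 2, 32285908 to 32295784, plus strand, and Ptges (ENSMUSG00000050737) on the same chromosome, 30779483 to 30819875, minus strand.

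Only for Ptges2 among the synthases did the groups not overlap, with both K97E libraries above both wild-type libraries. The log2 difference was 0.20 (SE 0.11, 95% interval -0.08 to 0.49, limma adjusted p = 0.965), and it was between 0.13 and 0.28 with each library left out. In its 7-exon transcript ENSMUST00000028162, which held 94.0% to 95.4% of the level, the K97E libraries lay above both wild-type libraries in 6 exons. Of the 8 tested genes 2, Ptges2 and Ptgs2, had groups without overlap, in opposite directions. Over all 16304 tested genes 35.6% had no overlap, so 2 of 8 is not above the background. By direction, 25.9% of all tested genes had both K97E libraries higher, as Ptges2 did, and 9.72% had both lower, as Ptgs2 did. These shares use TPM as deposited, where the median log2 difference over all tested genes was 0.0523, against -0.0017 after scaling between libraries. The split by direction was not counted after scaling, where Pla2g4a also had groups without overlap. Among scaled values with an unadjusted limma p under 0.05, 186 genes were higher in K97E and 414 lower.

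The log2 difference of Ptges was -0.16 (SE 0.23, 95% interval -0.73 to 0.42, limma adjusted p = 0.965), from -0.41 without K97E replicate 1 to 0.10 without K97E replicate 2. Its level rested on 214 to 420 estimated reads per library, the fewest among the tested genes. The transcript ENSMUST00000132244 accounted for 20.6% and 32.5% of Ptges TPM in the K97E libraries, against at most 14.5% in the wild-type libraries. That split is StringTie's estimate among overlapping transcripts and was not tested.

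Ptges3 differed by 0.02 (SE 0.10, 95% interval -0.23 to 0.27, limma adjusted p = 0.991) on the log2 scale. Its sign depended on the library left out, with a lowest value of -0.0573 and a highest of 0.0970. Its value is uncertain for another reason. A sequence comparison of annotated transcripts found 480 bases identical at 100% in the processed copy Ptges3-ps, which the files list at 149 and 169 TPM in the K97E libraries, against 179 and 169 TPM in the wild-type libraries. Reads from such a stretch can be credited to either gene. Summed, the pair stood at 321 and 348 TPM in the K97E libraries, against 354 and 327 TPM in the wild-type libraries. The groups overlapped.

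Ptgis, the synthase of prostacyclin (ENSMUSG00000017969; GRCm39 chromosome 2, 167033725 to 167082524, minus strand), was far more abundant than Ptges. It had 49.8 and 50.8 TPM in the K97E libraries, against 37.8 and 55.6 TPM in the wild-type libraries. The K97E values lay between the wild-type ones. The log2 difference was 0.08 (SE 0.19, 95% interval -0.39 to 0.54, limma adjusted p = 0.982), and it turned to -0.20 when wild-type replicate 1 was left out and was 0.35 when wild-type replicate 2 was. Ptgis exceeded Ptges 17.7-fold and 29.1-fold in the K97E libraries, and 17.4-fold and 20.4-fold in the wild-type libraries.

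Hpgd, the dehydrogenase that inactivates prostaglandins, was barely detected. It was listed at 0.028 and 0.024 TPM in the K97E libraries, against 0 and 0.035 TPM in the wild-type libraries, which corresponds to at most 3 estimated reads. Hpgd (ENSMUSG00000031613; GRCm39 chromosome 8, 56747620 to 56774078, plus strand) was below the mean of 0.5 TPM required for testing, and no fold change is given.

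The receptor genes split sharply. Ptger2, which encodes the EP2 receptor, was listed at 0 TPM in all 4 libraries (ENSMUSG00000037759; GRCm39 chromosome 14, 45225652 to 45241277, plus strand). Part of it, 249 bases, is identical to the overlapping gene Gm17173, which was also listed at 0. Ptger4 (ENSMUSG00000039942; GRCm39 chromosome 15, 5236142 to 5273668, minus strand) encodes EP4, a receptor that like EP2 raises cyclic AMP. It had 8.37 and 6.55 TPM in the K97E libraries, against 7.01 and 7.38 TPM in the wild-type libraries. The K97E values lay on either side of the wild-type ones. Its log2 difference was -0.01 (SE 0.14, 95% interval -0.37 to 0.34, limma adjusted p = 0.995), and its sign changed with TPM as deposited (0.04), with quantile normalization, with FPKM, with voom weights and with a library left out. Ptger1, which encodes the calcium-coupled EP1 receptor, had 1.10 and 1.01 TPM in the K97E libraries, against 0.729 and 0.837 TPM in the wild-type libraries, with a limma adjusted p of 0.965. Ptger3, for EP3, did not exceed 0.0723 TPM. Of the TPM of these 4 receptor genes, Ptger4 made up 87.7% and 86.7% in K97E and 90.2% and 89.6% in wild type. The transcript ENSMUST00000120563 carried 64.6% and 65.8% of Ptger4 TPM in the K97E libraries, against 59.9% and 56.6% in the wild-type libraries, untested. Ttc33, on the opposite strand, shares up to 82 bases with a Ptger4 exon and was listed at 36.5 to 42.1 TPM, and without a strand option those reads can be credited to either.

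**Figure D3:**
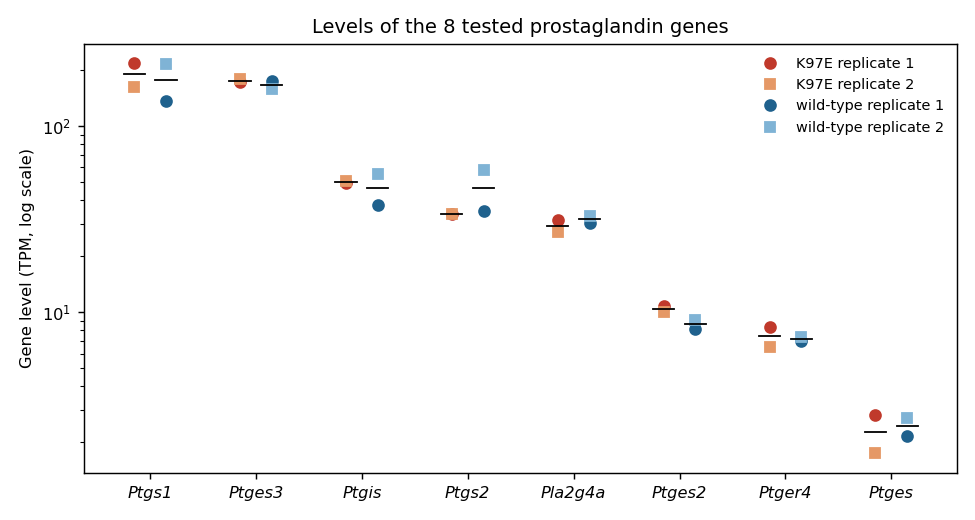
Levels of the 8 tested genes in TPM (vertical axis, log scale) in each library, with K97E left of wild type and a black line at each group mean. Ptgs1 and Ptges3 lie highest and Ptges lowest, and only Ptgs2 and Ptges2 show groups without overlap.

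In order of level, Ptgs1 and Ptges3 came first, with overlapping ranges over the 4 libraries. Ptgis, Ptgs2 and Pla2g4a followed, from 27.1 to 58.0 TPM, and Ptgis and Ptgs2 could not be ranked beyond their spread. Ptges2 and Ptger4 came next with ranges that overlapped slightly, then Ptges, then Hpgd, with Ptger2 last. TPM is scaled for annotated transcript length, so these levels can be compared only as far as that length is covered. In Ptges2 the last exon, of 3597 bases, had coverage per aligned gigabase of 1.68 and 1.53 in K97E, against 1.04 and 1.48 in wild type. Its exon 4 had 22.2 and 21.9 in K97E, against 21.4 and 21.6 in wild type. The place of Ptges2 in this order, and its share among the synthases, therefore depend on the annotated ends.

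**Figure D4:**
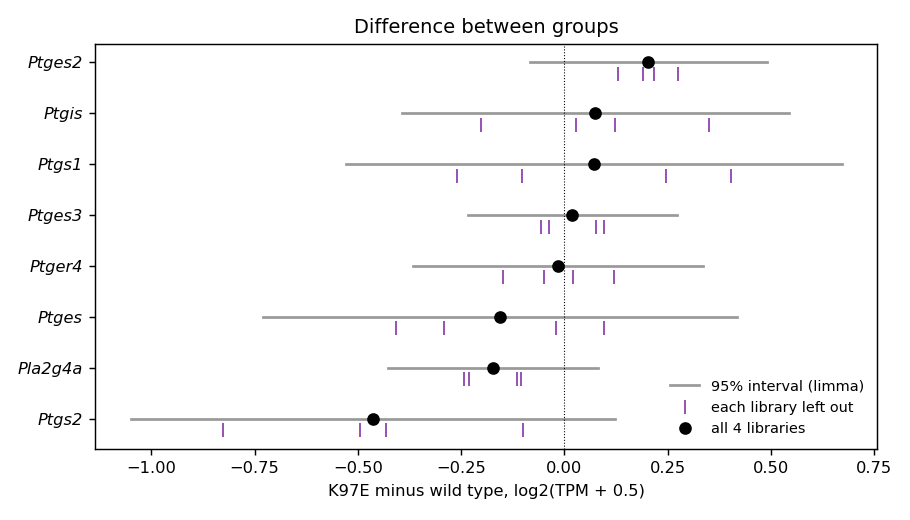
Difference of K97E minus wild type in log2(TPM + 0.5) for the 8 tested genes (horizontal axis), with limma's 95% interval as a grey line and the values with each library left out as purple ticks. Every interval includes 0, and the ticks of Ptgs1, Ptges, Ptges3, Ptgis and Ptger4 lie on both sides of 0.

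As a group the 8 tested genes showed no common direction: 4 had a positive and 4 a negative log2 difference, and their median was 0.0028, beside -0.0017 over all tested genes. The gap between the wild-type libraries was wider than that between the K97E libraries for 5 of the 8, or 62.5%, beside 60.8% of all tested genes. Hpgd and Ptger2, with no test, are not part of these counts.

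Other genes of the pathway were also without calls. Of 12 measured prostanoid synthases, reductases and transporters 7 were tested, 5 positive and 2 negative, with a median log2 difference of 0.02. Slco2a1, the prostaglandin uptake transporter, had the smallest unadjusted p and stood at 0.448 and 0.479 TPM in the K97E libraries, against 0.681 and 0.571 TPM in the wild-type libraries. Zadh2, for a prostaglandin reductase, had a log2 difference of 0.07. Of 8 other prostanoid receptor and receptor-associated genes 4 were tested, 3 of them positive. Ptgfrn, a negative regulator of the prostaglandin F2 alpha receptor, had 92.7 and 98.9 TPM in the K97E libraries, against 77.7 and 79.4 TPM in the wild-type libraries. Its log2 difference was 0.23 (SE 0.09, limma adjusted p = 0.965).

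Of 19 genes of other phospholipases A2 and arachidonate handling 13 were tested, 8 positive and 5 negative, with a median of 0.03. Acsl4, which attaches coenzyme A to arachidonic acid, differed by -0.16, and Pla2g15, the lysosomal phospholipase, by 0.20 on the log2 scale. Of 13 lipoxygenase and leukotriene genes 5 were tested, 3 positive and 2 negative. Alox5ap, the 5-lipoxygenase activating protein, differed by -0.19, and the cysteinyl leukotriene receptor gene Cysltr2 by -0.36. Of 24 genes of cyclic AMP signalling and response downstream of EP2 and EP4, 23 were tested, 12 positive and 11 negative, with a median of 0.02. Among them the adenylyl cyclase genes Adcy7 and Adcy9 had the smallest unadjusted p. Adcy7 had 56.4 and 46.0 TPM in the K97E libraries, against 32.5 and 41.2 TPM in the wild-type libraries (log2 difference 0.41, SE 0.15, limma adjusted p = 0.965). Adcy9 differed by 0.20.

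Of 21 measured regulators of Ptgs2 transcription and mRNA decay, all tested, 7 were positive and 14 negative, with a median of -0.03. The list mixes transcription factors with genes that act on mRNA decay, so a shared direction has no single meaning for Ptgs2. Cebpd, a C/EBP transcription factor, had 5.66 and 9.32 TPM in the K97E libraries, against 15.2 and 17.0 TPM in the wild-type libraries. Its log2 difference was -1.15 (SE 0.25, limma adjusted p = 0.965). Zfp36l1, which encodes an RNA-binding protein that promotes decay of AU-rich mRNAs, had 31.6 and 28.5 TPM in the K97E libraries, against 36.0 and 38.9 TPM in the wild-type libraries. It differed by -0.37 on the log2 scale (SE 0.09, limma adjusted p = 0.965). Cebpb, for another C/EBP factor, was named after its values were seen. It had 136 and 151 TPM in the K97E libraries, against 166 and 174 TPM in the wild-type libraries (log2 difference -0.30, SE 0.11, limma adjusted p = 0.965). For all 3 both K97E libraries were lower without overlap, as in 9.72% of all tested genes, a share of TPM as deposited, before scaling between libraries. In this list 6 of 21 genes had that pattern and 3 had both K97E libraries higher. An unadjusted p under 0.05 was reached by 4 of the 21, Nfkb1 beside these 3, against 3.68% of all tested genes in either direction. All 4 were lower in K97E, beside 2.54% of all tested genes in that direction. The list was chosen with earlier results of these data known, so these shares are a description and were not tested. A link of these genes to the Ptgs2 level was not tested either. Nfkb1, an NF-kappa B subunit gene also named after its values were seen, differed by -0.26 on the log2 scale. In none of the first 3 was the high value confined to wild-type replicate 2, as it was for Ptgs2. No gene of these 6 lists passed the test in either direction.

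By likeness of pattern, the genes closest to Ptgs2 over the 4 libraries, by the root mean square difference of centred log2 values among 10139 genes, were Prxl2a (0.061), Ier3 (0.087), Mmp3 (0.094), Acaa1b (0.10) and Ndrg2 (0.11). They were picked for this likeness, so their highest value in wild-type replicate 2, like that of Ptgs2, follows from the choice. Mmp3, a matrix metalloproteinase gene, had 5.91 and 6.62 TPM in the K97E libraries, against 6.57 and 9.73 TPM in the wild-type libraries. Ndrg2 was above 5 TPM only in wild-type replicate 2, at 7.02 TPM. With 4 libraries many genes can share a profile, and the closeness is given as a description.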

How the data were processed

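Per the file headers, the authors ran StringTie 2.1.7 restricted to known transcripts (Ensembl 104, GRCm39), and with no strand option recorded although the kit, per the labels, is stranded. The submitters' processing notes also name HISAT2, SAMtools, FastQC and DESeq2, whose roles are not given in the sources used here. The deposited values are TPM, FPKM and coverage for 142434 transcripts per library, without read counts, so no counting interval was computed. Where a locus has no coverage, its symbol stands under another attribute, which was read too.

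Gene values were summed TPM, divided by median-of-ratios factors (0.98 to 1.04), with 0.5 added before log2. Genes with a mean of at least 0.5 TPM were tested with limma 3.58.1 (R 4.3.3, eBayes with trend, two-sided, Benjamini-Hochberg, threshold 0.05). The code was run on simulated data, drawn as independent values from limma's own variance model. No simulated library stood apart from its group, so that run does not show how the test behaves with these libraries. TPM in the text is as deposited, also where groups are said not to overlap. Estimated reads are coverage times length over 100. Exon coverage was divided by the aligned gigabases of the library (10.8 to 13.9). Near-identical copies were sought among GENCODE M21 transcripts (at least 95% identity over 200 bases). Promoters matched 9 of the 10 genes and are of another build than the files. The members and lists were chosen with earlier results of these data known. Named beyond the members were, of each list without calls, the 2 genes with the smallest unadjusted p, and the 5 genes most like Ptgs2 at a mean of at least 5 TPM. Marker lists were myoblast, leukocyte, endothelial, fibroblast, epithelial and smooth muscle. The deviations of same-numbered libraries had a correlation of -0.14, and nothing in the labels pairs them. Figures were drawn with matplotlib 3.10.9.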

Additional observations from a re-analysis of the deposited data

How the results depend on the processing

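No prostaglandin gene was called under any of 14 other settings or the crossed pairing, which was chosen after seeing the data. Pla2g4a, Ptgs2 and Ptges2 kept their direction under all of these, but many of these fits could not have changed it. Settings that alter only the filter, the trend or the block give the same log2 difference. Where groups do not overlap after scaling, as for these genes, leaving out a library cannot turn the sign. Ptger4 turned to 0.0403 with TPM as deposited, 0.00753 with quantile normalization, 0.012 with FPKM and 0.018 with voom weights. With each library left out the log2 differences ran from -0.15 to 0.12 for Ptger4, -0.26 to 0.40 for Ptgs1, -0.41 to 0.10 for Ptges, -0.0573 to 0.0970 for Ptges3 and -0.20 to 0.35 for Ptgis. The number of genes called over the whole table, 1 with all libraries, was 0 with no filter, 2 with TPM as deposited, 4 with voom weights, 2 with eBayes without trend, and 0 to 12 with a library left out. With the replicate number as a block (replicate block) 0 genes were called, and with the crossed pairing 30. The cause of these moves was not tested. A library alone in its group was assumed to vary like the other group. A mean of at least 5 TPM leaves out Ptges. The share of the spread that comes from depth was not measured: estimated reads were 214 to 420 per library for Ptges, the fewest among the tested genes, and at most 3 for Hpgd.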

Other observations

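A pair of opposite-strand genes is annotated near Ptgs2 (149975782 to 149983978), and neither overlaps it. Ptgs2os2 (GRCm39 chromosome 1, 150034794 to 150040699, minus strand) stood at 4.21 and 3.52 TPM in the K97E libraries, against 4.43 and 6.47 TPM in the wild-type libraries, with wild-type replicate 2 highest, as for Ptgs2. Its log2 difference was -0.48 (SE 0.20, limma adjusted p = 0.965). Ptgs2os, which lies directly upstream of Ptgs2 on the minus strand, stood at 0.826 and 0.528 TPM in the K97E libraries, against 0.572 and 0.664 TPM in the wild-type libraries. Ptgir, the receptor for the product of Ptgis, stood at 7.78 and 9.71 TPM in the K97E libraries, against 10.6 and 8.27 TPM in the wild-type libraries. Ptgfr, the prostaglandin F2 alpha receptor gene, stood at 2.80 and 2.68 TPM in the K97E libraries, against 2.18 and 2.88 TPM in the wild-type libraries. These genes were named after their values were seen.

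Other cell type markers gave these sums. Of 5 endothelial markers 1, Cdh5, reached 0.5 TPM, with sums of 17.5 and 19.0 TPM in K97E and 20.8 and 18.4 TPM in wild type. Of 4 fibroblast markers 3 did, with sums of 274 and 279 TPM in K97E and 256 and 261 TPM in wild type, and of 4 epithelial markers 0 did. Of 4 smooth muscle markers 2 did, Acta2 and Tagln, with sums of 666 and 447 TPM in K97E and 384 and 504 TPM in wild type, while the defining markers Myh11 and Cnn1 were at or near 0.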
